A study of Homo sapiens with 6 samples.

Results

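The AP-1 genes examined here are 10 transcription factor genes chosen by name, FOS, FOSB, FOSL1, FOSL2, JUN, JUNB, JUND, ATF3, BATF3 and MAFF, all of which were among the 33542 genes of the deposited count table. They were measured by RNA sequencing in T24 cells, an established human urinary bladder carcinoma line that carries an oncogenic HRAS allele. The cells had been transfected by lipofection with a small interfering RNA against TRAIP, a RING-type E3 ubiquitin ligase (siTRAIP, 3 libraries), or with a control small interfering RNA (siNC, 3 libraries). The label of each treated library carries the code siTR2, and no source used here gives the sequence of either small interfering RNA. Nothing says that the libraries of a group are separate cultures, so every p-value rests on library-to-library spread that may be technical only. The stated purpose was to look for mechanisms that TRAIP acts through in this cancer, and the title of the study connects TRAIP to the ubiquitination of MYC.

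AP-1 is a family of dimers of basic leucine zipper proteins. JUN proteins pair with one another or with FOS proteins, FOS proteins need a partner of another group, and the dimers bind the palindromic sequence TGANTCA, known as the TPA response element. Many of the genes are immediate early genes, whose short-lived transcripts appear within minutes of growth factor or stress signals that run through the ERK, JNK and p38 kinases, while FOSL1 (FRA-1) is known for lasting accumulation in cells with an active RAS pathway. Transcript levels measure neither AP-1 protein nor its binding to DNA.

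The libraries held between 39111793 and 70439496 gene counts. TRAIP itself stood at 12.5, 14.7 and 11.6 CPM (counts scaled to equal library size with TMM factors) in siTRAIP replicates 1 to 3, against 26.6, 28.3 and 28.4 CPM in siNC replicates 1 to 3, a log2 fold change of -1.11 (edgeR, SE 0.07 and adjusted p = 6.74e-10), and the groups did not overlap. Of 18685 genes tested with edgeR's quasi-likelihood test, 12.8% passed a Benjamini-Hochberg adjusted p of 0.05, with 7.47% higher in siTRAIP (rose) and 5.34% lower (fell), and groups did not overlap for 29.1%. With library totals alone as the scale, 838 genes rose and 2050 fell, against 1396 and 997 with TMM factors. Leaving out siNC replicate 1, 2 or 3 gave 1480, 1619 and 1637 called genes, against 2393 with all libraries. Leaving out siTRAIP replicate 1, 2 or 3 gave 1798, 1926 and 2622. One library stood apart: the counts of siTRAIP replicate 3 and of the other libraries of its group differed with a chi-square of 15.85 and 16.42 for each degree of freedom, against 3.20 to 7.32 for the other pairs of libraries within a group. Summed epithelial markers lay between 3172 and 3466 CPM in siTRAIP and between 3479 and 3538 CPM in siNC, and of 5 tested KRT7 fell. Keratin transcripts were abundant, with KRT8 at 1596 and 1686 CPM and KRT18 at 514 and 497 CPM in siTRAIP and siNC, while CDH1 (E-cadherin) was at 0.034 and 0.011 CPM. Summed urothelial markers lay between 21.8 and 24.6 CPM in siTRAIP and between 21.7 and 23.2 CPM in siNC, most of it PPARG at 18.9 CPM in siTRAIP and 18.4 CPM in siNC. FOXA1 was at 2.79 and 3.05 CPM and UPK2 at 0.767 and 0.893 CPM in siTRAIP and siNC, while UPK3A and GATA3 were at or below 0.29 CPM in both groups, and none of the 4 tested urothelial markers passed. Summed fibroblast markers lay between 1.08 and 4.92 CPM in siTRAIP and between 1.19 and 1.43 CPM in siNC, and summed endothelial markers lay below 0.16 CPM in every library. Of the leukocyte markers, the lysosomal gene CD68 made up nearly all the signal and rose (edgeR adjusted p = 9.17e-04), with 81.7% of its exonic bases shared with another gene, while CD14 and PTPRC lay below 0.065 CPM in both groups.

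Of the 10 AP-1 genes, 2 fell and 2 rose with siTRAIP. FOSL1, the most abundant of them, and JUNB fell, while FOSB and BATF3 rose. In RNA from whole cultures, fewer expressing cells and less RNA per cell cannot be told apart. The other 6 genes did not pass, among them JUN, the most abundant JUN gene. All 10 passed the filter on low counts, FOS on 8 to 22 counts per library. The 4 calls stand against 12.8% of all tested genes. On CPM the groups did not overlap for 5 of the 10, against 29.1% of all tested genes. The 10 genes were chosen with earlier results of these data known, so these counts are a description. The median log2 fold change of the 10 genes was 0.08, against -0.002 over all tested genes. The 2 falls became 1 with DESeq2, without siNC replicate 3 and without siTRAIP replicate 1, each time through JUNB, and the 2 rises became 3 without siTRAIP replicate 3, through JUN.

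Levels of different genes were compared on the authors' RPKM, which divide by gene length. FOSL1 averaged 130 ± 2.86 RPKM in siTRAIP and 158 ± 6.29 RPKM in siNC (SD, n = 3 each), above 98.3% of all tested genes. JUN followed at 57.1 ± 2.94 and 56.8 ± 0.853 RPKM in siTRAIP and siNC. These levels made FOSL1 between 60.7% and 62.8% of the summed RPKM of all 10 genes in siTRAIP libraries, against 65.4% to 66.8% in siNC libraries, and JUN between 26.1% and 27.8% in siTRAIP, against 23.5% to 24.3% in siNC. MAFF came next at 10.1 ± 0.399 RPKM in siTRAIP and 10.9 ± 0.264 RPKM in siNC, and FOSL2 after it at 6.49 ± 0.240 and 6.33 ± 0.293 RPKM. Among these 4 genes no library of one gene reached the range of the next in either group.

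The remaining genes lay at low levels, and their order was not the same in both groups. In siTRAIP, BATF3 at 2.12 ± 0.287 RPKM was followed by JUND, FOSB and JUNB at 1.48 ± 0.236, 1.40 ± 0.0872 and 1.38 ± 0.133 RPKM, and the ranges of JUND and FOSB overlapped, as did those of FOSB and JUNB. In siNC, JUNB at 1.98 ± 0.0755 RPKM stood above the rest, followed by BATF3 at 1.43 ± 0.123, JUND at 1.34 ± 0.137 and FOSB at 1.06 ± 0.0517 RPKM, and the ranges of BATF3 and JUND overlapped. ATF3 was at 0.743 ± 0.0437 and 0.741 ± 0.0589 RPKM in siTRAIP and siNC, and FOS closed the order in both groups. JUND and JUNB, often abundant transcripts in other cells, made up 2.48% ± 0.460 and 2.30% ± 0.239 of the summed RPKM of the JUN genes in siTRAIP, against 2.23% ± 0.188 and 3.28% ± 0.0675 in siNC.

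**Figure D1:**
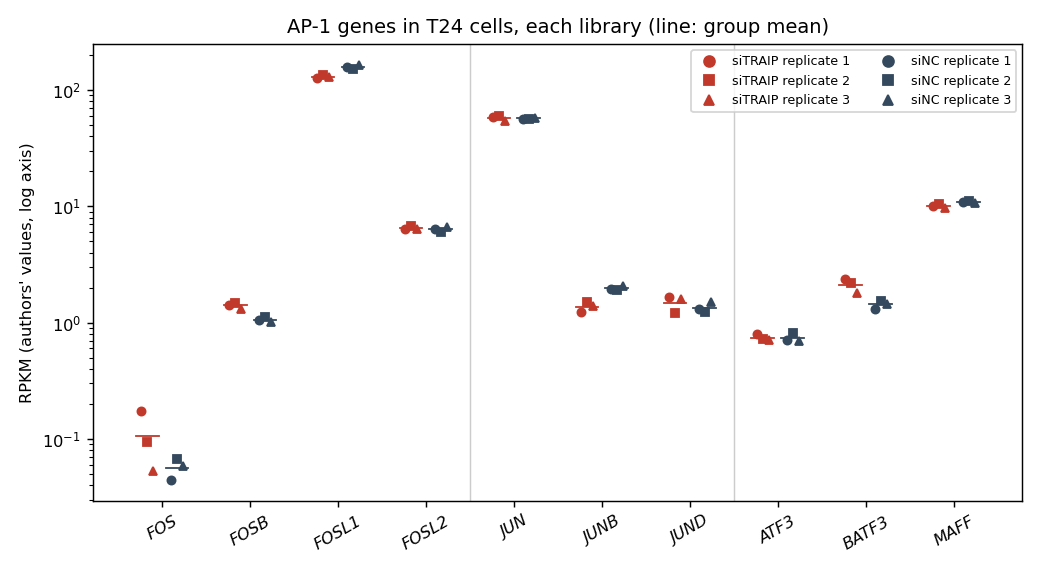
RPKM of each AP-1 gene in every library on a log axis, siTRAIP in red and siNC in dark blue, with a symbol for each replicate number and a line at the group mean; vertical lines separate the FOS genes, the JUN genes and the ATF, BATF and MAF genes. FOSL1 and JUN stand highest, at means of 130 and 57.1 RPKM in siTRAIP and 158 and 56.8 RPKM in siNC, and FOS lowest.

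FOSL1 encodes FRA-1, a FOS protein without the strong activation domain of FOS. Its gene lies on chromosome 11 (65892049 to 65900573, minus strand, GRCh38). FOSL1 stood at 247, 254 and 249.5 CPM in siTRAIP replicates 1 to 3, against 292, 284 and 302 CPM in siNC replicates 1 to 3. Every siTRAIP library lay below every siNC library, and the siTRAIP libraries differed little among themselves. The log2 fold change was -0.22 (edgeR, SE 0.04 and adjusted p = 5.73e-04), a fold of 0.856, and its size exceeded that of 72.0% of tested genes. FOSL1 was called in all 16 alternatives, with log2 fold changes of -0.28 to -0.20. No other annotated gene shares its exonic bases, and it has 1 named pseudogene.

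FOSB, a FOS gene whose shorter splice form is known from chronically stimulated neurons, moved the other way. Its gene lies on chromosome 19 (45467995 to 45475179, plus strand). FOSB stood at 8.11, 8.35 and 7.44 CPM in siTRAIP, against 5.70, 6.12 and 5.46 CPM in siNC, so the groups did not overlap. The rise was 0.46 on the log2 scale (edgeR, SE 0.09 and adjusted p = 0.00134), a fold of 1.38, and it was called in all 16 alternatives (0.22 to 0.52, the lowest on log2(RPKM + 1), a scale that shrinks the changes of low genes). The counts are per gene, so splice forms cannot be told apart.

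FOSL2 encodes FRA-2, which like FRA-1 lacks the FOS activation domain. FOSL2 stood at 46.8, 49.1 and 46.5 CPM in siTRAIP, against 44.6, 42.6 and 45.9 CPM in siNC. On this scale every siTRAIP library was above every siNC library. On RPKM the groups overlapped, at 6.35 to 6.77 in siTRAIP and 6.01 to 6.59 in siNC. On the log2 scale the difference was 0.10 with an SE of 0.05, short of the threshold (edgeR adjusted p = 0.219). With library totals alone it was 0.04 (edgeR adjusted p = 0.696).

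FOS, the founding member and a classical serum-induced gene, was nearly silent, with 22, 14 and 12 counts in siTRAIP, against 8, 12 and 11 counts in siNC. These are 0.579, 0.308 and 0.174 CPM in siTRAIP and 0.139, 0.217 and 0.184 CPM in siNC, and its mean RPKM exceeded that of 3.70% of tested genes. siTRAIP replicate 1 was highest and siTRAIP replicate 3 lay within the siNC range. The log2 fold change of 0.88 (edgeR, SE 0.49 and adjusted p = 0.281) was 0.37 without siTRAIP replicate 1 and 1.27 without siTRAIP replicate 3, without a call in any fit.

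JUN, on chromosome 1 (58780788 to 58784327, minus strand), encodes c-Jun, the main activating JUN protein. JUN stood at 212, 213 and 194 CPM in siTRAIP, against 195, 198 and 199 CPM in siNC. Replicates 1 and 2 of siTRAIP were above every siNC library, and siTRAIP replicate 3, the library that stood apart, was just below them. The log2 fold change was 0.06 (edgeR, SE 0.04 and adjusted p = 0.396), and without siTRAIP replicate 3 it was 0.11 and passed (edgeR adjusted p = 0.0467). In the 15 other alternatives JUN did not pass. With library totals alone the log2 fold change was 0.0046 (edgeR adjusted p = 0.964), and on log2(RPKM + 0.1) it was 0.0040 (limma adjusted p = 0.969).

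JUNB, on chromosome 19 (12791496 to 12793315, plus strand), encodes a JUN protein with a weaker activation domain that can dampen c-Jun. JUNB stood at 2.32, 2.77 and 2.58 CPM in siTRAIP, against 3.45, 3.47 and 3.65 CPM in siNC, on 88 to 218 counts per library. All siTRAIP libraries lay below all siNC libraries. The log2 fold change was -0.46 (edgeR, SE 0.13 and adjusted p = 0.0181), a fold of 0.728. The call was lost with DESeq2 (adjusted p = 0.0551), without siNC replicate 3 (edgeR adjusted p = 0.0688) and without siTRAIP replicate 1 (edgeR adjusted p = 0.0711), with the same direction each time. The oppositely oriented gene HOOK2 covers 14.2% of the exonic sequence of JUNB, and since the strand setting of the counting is not given, reads of the 2 genes may not be separated there. HOOK2 had a log2 fold change of 0.13 (edgeR adjusted p = 0.303), at 14.07 CPM in siTRAIP and 12.9 CPM in siNC.

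JUND, whose protein is known to restrain growth in RAS-transformed fibroblasts, stood at 3.16, 2.29 and 3.02 CPM in siTRAIP, against 2.37, 2.28 and 2.71 CPM in siNC. The groups overlapped through siTRAIP replicate 2. On the log2 scale the difference was 0.20 with an SE of 0.15, short of the threshold (edgeR adjusted p = 0.446).

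BATF3 encodes a small zipper protein without an activation domain that pairs with JUN proteins and is known for its role in dendritic cell development. Its gene lies on chromosome 1 (212686418 to 212699985, minus strand). BATF3 stood at 6.61, 6.02 and 5.00 CPM in siTRAIP, against 3.45, 4.15 and 3.84 CPM in siNC. The groups did not overlap, and siTRAIP replicate 3 was the lowest of its group. The rise was 0.61 on the log2 scale (edgeR, SE 0.12 and adjusted p = 0.00103), a fold of 1.53 and larger in size than the change of 95.7% of tested genes. BATF3 was called in all 16 alternatives, with values of 0.36 to 0.72, the lowest again on log2(RPKM + 1). With this rise its share of the summed RPKM of ATF3, BATF3 and MAFF was 14.8% to 17.8% in siTRAIP libraries, against 10.2% to 11.4% in siNC libraries.

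ATF3, a stress-induced gene of the ATF group, and MAFF, a small MAF protein that lacks an activation domain, did not pass. ATF3 stood at 3.29, 2.99 and 2.92 CPM in siTRAIP, against 2.82, 3.23 and 2.75 CPM in siNC, a log2 fold change of 0.06 (edgeR, SE 0.13 and adjusted p = 0.848) with library totals alone reversing its sign. MAFF stood at 58.7, 59.8 and 55.7 CPM in siTRAIP, against 59.2, 62.1 and 58.3 CPM in siNC, a log2 fold change of -0.05 (edgeR, SE 0.05 and adjusted p = 0.616). On CPM the groups overlapped for both genes. On RPKM every siTRAIP library of MAFF (9.71 to 10.5) lay below every siNC library (10.67 to 11.2). MAFF did not pass with limma on log2(RPKM + 0.1) either (adjusted p = 0.199).

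**Figure D2:**
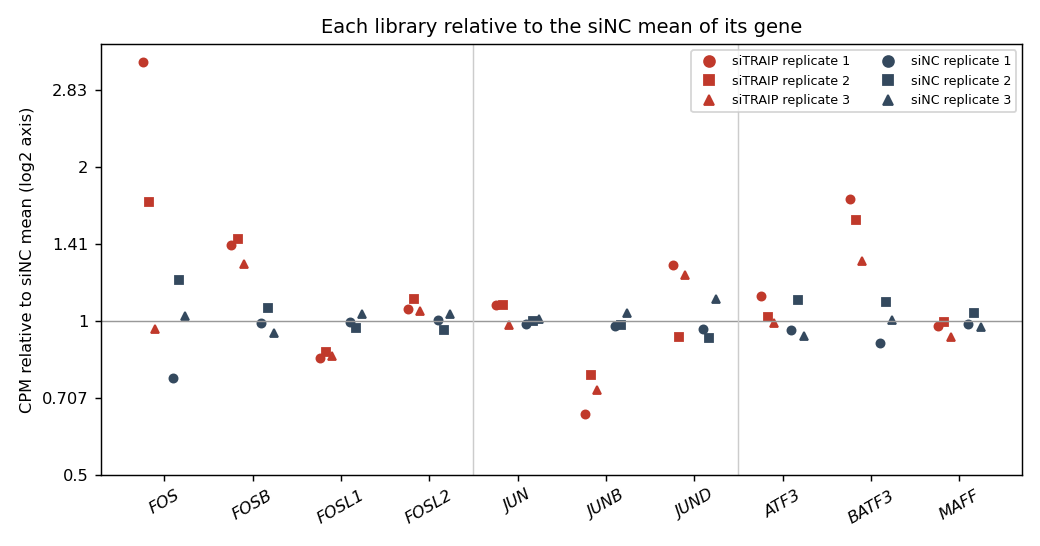
CPM of each AP-1 gene in every library divided by the mean of the siNC libraries, on a log2 axis, siTRAIP in red and siNC in dark blue. The siTRAIP libraries of FOSL1 and JUNB lie below 1 and those of FOSB and BATF3 above it, while FOS scatters most, on 8 to 22 counts.

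**Figure D3:**
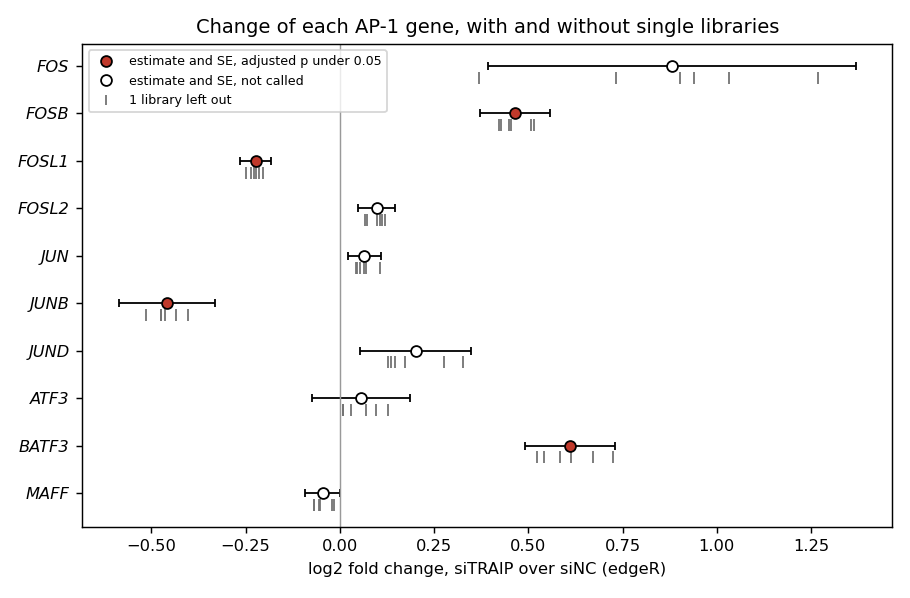
Log2 fold change of each AP-1 gene (siTRAIP over siNC, edgeR) with its SE; filled points passed an adjusted p of 0.05, open points did not, and ticks show the value with 1 library left out. FOSL1 and JUNB lie at -0.22 and -0.46, FOSB and BATF3 at 0.46 and 0.61, and the ticks of FOS run from 0.37 to 1.27.

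Summed over the FOS genes, the level was 138 ± 3.10 RPKM in siTRAIP and 166 ± 6.53 RPKM in siNC, a ratio of 0.833 that is almost wholly FOSL1, which held between 94.1% and 94.4% of that sum in siTRAIP and about 95.5% in siNC. The JUN genes summed to 59.9 ± 2.83 RPKM in siTRAIP and 60.2 ± 1.06 RPKM in siNC, a ratio of 0.996, and ATF3, BATF3 and MAFF to 12.98 ± 0.664 and 13.1 ± 0.412 RPKM. These sums carry no test. On summed CPM, which use TMM factors in place of library totals and do not divide by gene length, the ratios of the FOS and JUN sums were 0.894 and 1.04.

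Promoter sequences of FOSB and JUNB, which changed in opposite directions, are shown with that of JUN, which did not pass. The RefSeq table (GRCh38.p14) holds windows of 300 bases, 250 before and 50 after the annotated start, for 8 of the 10 genes, not for FOSL1 and BATF3. Capitals mark the CRE core TGACG on either strand, the first part of the cAMP response element, and in JUN also the AP-1-like TGACATCA.
FOSB promoter, chr19:45467746-45468045, plus strand: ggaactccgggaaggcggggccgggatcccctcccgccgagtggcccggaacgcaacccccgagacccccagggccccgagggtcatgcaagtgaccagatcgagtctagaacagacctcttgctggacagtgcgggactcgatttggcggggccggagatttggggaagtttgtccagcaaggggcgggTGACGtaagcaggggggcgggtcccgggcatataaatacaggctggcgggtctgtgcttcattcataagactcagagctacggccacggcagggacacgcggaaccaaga
JUNB promoter, chr19:12791236-12791535, plus strand: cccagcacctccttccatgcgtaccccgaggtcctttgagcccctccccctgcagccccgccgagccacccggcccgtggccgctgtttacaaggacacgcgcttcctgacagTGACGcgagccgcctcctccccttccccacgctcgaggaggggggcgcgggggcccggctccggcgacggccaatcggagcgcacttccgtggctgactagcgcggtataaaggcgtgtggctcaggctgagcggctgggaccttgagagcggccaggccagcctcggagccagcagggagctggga
JUN promoter, chr1:58783998-58784297, minus strand: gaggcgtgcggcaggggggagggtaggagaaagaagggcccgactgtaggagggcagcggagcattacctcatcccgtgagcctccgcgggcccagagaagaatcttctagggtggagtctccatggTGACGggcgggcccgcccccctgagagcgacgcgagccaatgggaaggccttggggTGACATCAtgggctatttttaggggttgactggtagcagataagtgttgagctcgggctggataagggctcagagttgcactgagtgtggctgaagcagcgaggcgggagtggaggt

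In these windows FOSB held TGACG at -60 to -56 from the start site and JUNB at -137 to -133. JUN held TGACG at -123 to -119 and TGACATCA at -67 to -60. TGACG, searched on both strands, was present in 7 of the 8 genes and in 24.6% of all 35116 promoter windows. It lies within the full element TGACGTCA, found in JUND and MAFF and in 1.85% of all windows. TGACATCA was present in JUN and ATF3 and in 2.61% of windows. TGANTCA, which reads the same on both strands, was present in FOSL2 alone of these genes, as TGACTCA 4 to 10 bases past the start, and in 7.71% of windows. The CArG box of serum response factor was in none of the windows of the 8 genes and in 1.29% of all windows. A CArG box farther than 250 bases before the start lies outside these windows and would not be seen. These matches describe letters and carry no statement on binding.

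An earlier look at the fold changes of these data had picked 7-base words that were frequent in the coding sequence and 3' UTR of genes that rose (TCGGAGA and CGGAGAA) and of genes that fell (ACAGTCT and CAGTCTA). In GENCODE v29 transcripts FOSB held a word of the first pair in its coding sequence and another in its 3' UTR, shown here in capitals because FOSB is the one called AP-1 gene with any of these words.
FOSB coding sequence: agctggagTCGGAGAtcgccgag
FOSB 3' UTR: catttttcCGGAGAAgatttcag

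A word of the first pair was present in 18.8% of tested protein-coding genes and 32.8% of called rises. The words were picked on these same data, so higher shares among called genes were built into the choice. FOSL2 and ATF3, which did not pass, also held words of the first pair, and MAFF held ACAGTCT in its 3' UTR, against 26.5% of tested protein-coding genes and 44.4% of called falls with a word of the second pair. FOSL1, JUNB and BATF3 held none of these words. The part of these words in the changes was not tested.

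The rank of FOSL1 by p was 573 of 18685 tested genes, the highest place of any of the 10. The 5 protein-coding genes with a mean of at least 5 CPM whose log2 CPM was most like that of FOSL1 over the 6 libraries were the collagen gene COL27A1, ZSWIM8, TMEM208, UBTD1 and PKIA, with Pearson's r of 0.998 to 0.992 among 9179 candidates. All 5 fell, COL27A1 at 72.6 CPM in siTRAIP and 88.7 CPM in siNC. With 2 groups of 3 libraries such an r mostly repeats the group difference, and 2.75% of candidates had an r above 0.95.

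Genes around AP-1 were followed in 6 lists. All were drawn up with earlier results of these data known, so their shares of called genes are a description. Among the basic leucine zipper genes outside the 10, 3 of 16 tested rose and 3 fell, 18.8% each way, against 7.47% and 5.34% of all tested genes. NFE2L1, a cap'n'collar factor that controls proteasome genes, rose by 0.47 on the log2 scale (edgeR, SE 0.04 and adjusted p = 2.10e-08), at 525 CPM in siTRAIP and 379 CPM in siNC. JDP2, a repressor that pairs with JUN, rose by 0.25 (SE 0.06) and ATF5 by 0.19 (SE 0.06). CEBPB fell by 0.32, the small MAF gene MAFG by 0.20 and NFE2L2, the NRF2 gene, by 0.18 on the log2 scale. Opposite-strand genes share 11.8% of the exonic bases of CEBPB and 21.2% of those of ATF5, and a same-strand gene shares 17.6% of those of NFE2L2. The median of the list was -0.02.

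Of 23 tested kinase genes upstream of AP-1, 1 rose and 5 fell, 4.35% and 21.7%, against 7.47% and 5.34% of all tested genes, with a median of -0.01. MAP2K3, a p38 activator, fell by 0.39 on the log2 scale (edgeR, SE 0.06 and adjusted p = 6.35e-05), and MAP2K4, which activates JNK, fell by 0.29 (SE 0.07). MAPK9, the JNK2 gene, fell by 0.19 and the kinase gene MAP3K7 by 0.17. MAPK12, a p38 gene that shares 29.3% of its exonic bases with HDAC10, rose by 0.19 on the log2 scale (edgeR adjusted p = 0.0271). Of 18 tested genes for factors that act on FOS and JUN promoters, 2 rose and 4 fell, 11.1% and 22.2%, against the same 7.47% and 5.34%, with a median of -0.09. ELK4, a ternary complex partner of serum response factor, rose by 0.37 (SE 0.06) and ATF1 by 0.32 (SE 0.06), while CREB1 fell by 0.25 (SE 0.05) and RELA by 0.21 (SE 0.04) on the log2 scale. ELK3, at 112 CPM in siTRAIP and 125 CPM in siNC, also fell, by 0.15 (edgeR adjusted p = 0.0141). ELK1 at -0.17 and SRF at -0.07 did not pass (edgeR adjusted p = 0.0686 and 0.535). Of 19 tested genes of AP-1 protein turnover and transcript decay, 1 rose and 2 fell, 5.26% and 10.5%, again against 7.47% and 5.34% of all tested genes, with a median of -0.02. DDA1, a subunit of the COP1 and DET1 ubiquitin ligase, fell by 0.28 (SE 0.05), ZFP36L2, which promotes decay of AU-rich transcripts, fell by 0.42 (SE 0.10), and HNRNPD, the AUF1 gene, rose by 0.17 (SE 0.05).

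Other immediate early genes gave 2 rises and 3 falls among 28 tested, 7.14% and 10.7%, against 7.47% and 5.34% of all tested genes, and their median was 0.01. IER2 rose by 0.45 on the log2 scale (edgeR, SE 0.11 and adjusted p = 0.00554) and IER3 by 0.27 (SE 0.08). CCN2 fell by 0.33, PHLDA1 by 0.22 and MCL1 by 0.19 on the log2 scale. Genes on the opposite strand share 30.8% of the exonic bases of IER2, 26.5% of those of IER3 and 16.5% of those of PHLDA1. EGR1, like FOS a serum-induced gene, was at 0.660 CPM in siTRAIP and 0.595 CPM in siNC and did not pass (edgeR adjusted p = 0.817).

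Of 31 tested genes described as AP-1 targets, 14 fell and 4 rose, 45.2% and 12.9%, against 5.34% and 7.47% of all tested genes, with a median of -0.10. The list was drawn up with earlier results of these data known, in which HBEGF, CXCL8, DLC1, CCND1, LIF and IL1B had already been seen to fall, so its count is a description. HBEGF, an EGF receptor ligand gene, was at 19.3 CPM in siTRAIP and 33.8 CPM in siNC, a log2 fold change of -0.80 (edgeR, SE 0.06 and adjusted p = 3.51e-09). CXCL8, the interleukin 8 gene, was at 89.2 CPM in siTRAIP and 132 CPM in siNC (log2 fold change -0.56, SE 0.04). DLC1, whose link to AP-1 is less established, fell by 0.52 and CCND1, the cyclin D1 gene, by 0.47 on the log2 scale, although 10.3% of the exonic bases of CCND1 are shared with an opposite-strand gene. Among the rises were TGFA (0.56), LAMA3 (0.31) and EREG (0.50) on the log2 scale. Of the 14 falls, 2, HBEGF and DLC1, held a word of the pair seen in genes that fell. Such a word was in 44.4% of all called falls and 26.5% of tested protein-coding genes. In the other lists it was in 1 of 3 falls of basic leucine zipper genes and 2 of 5 of kinase genes. It was also in 2 of 4 falls of promoter factors, 1 of 3 of immediate early genes and 1 of 2 of turnover genes. A word of the pair seen in genes that rose was in 0 of 4 rises of target genes and 0 of 1 of kinase genes. It was in 1 of 3 rises of basic leucine zipper genes (NFE2L1) and 2 of 2 of promoter factors (ELK4 and ATF1). It was also in 1 of 2 rises of immediate early genes (IER2) and 1 of 1 of turnover genes (HNRNPD). The part of the words in these falls and rises was not tested. The collagenase gene MMP1 and the stromelysin gene MMP3, classical AP-1 targets, were at 0.436 and 1.33 CPM in siTRAIP and 0.407 and 1.30 CPM in siNC, and neither passed (edgeR adjusted p = 0.897 and 0.981). PLAUR, CD44 and EZR, at high levels, had log2 fold changes between -0.01 and 0.01.

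**Figure D4:**
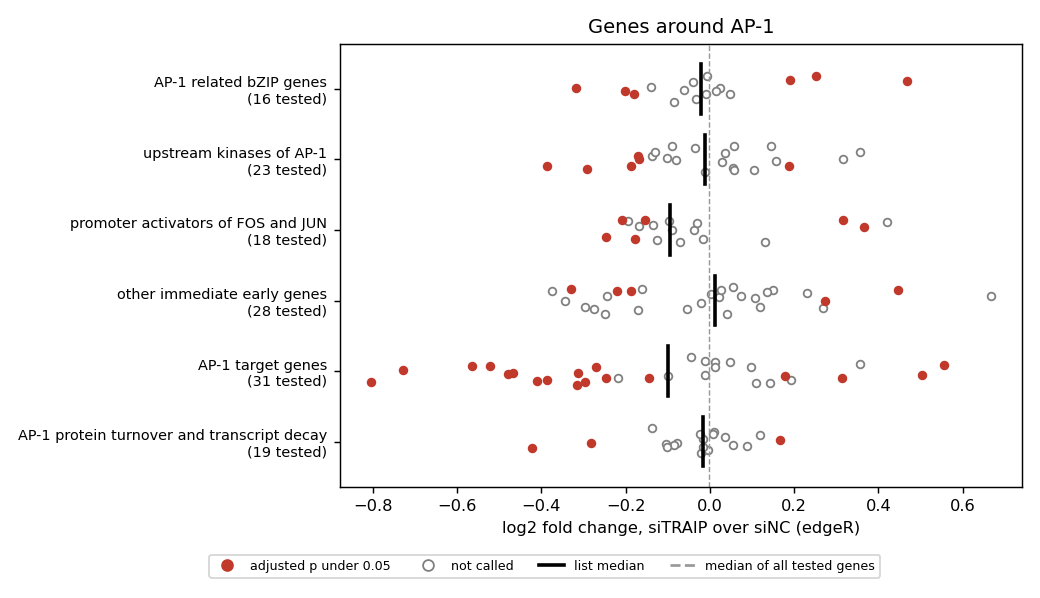
Log2 fold changes (siTRAIP over siNC, edgeR) of the tested genes of 6 lists around AP-1; filled points passed an adjusted p of 0.05, open points did not, the bar is the list median and the dashed line the median of all tested genes. The lists were drawn up with earlier results of these data known. The target list has 14 of its 31 genes among the falls, 45.2% against 5.34% of all tested genes, and a median of -0.10. The other immediate early genes have a median of 0.01.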

How the data were processed

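RNA from 6 libraries of T24 cells was sequenced with a stranded mRNA kit, per the labels' protocols. Trimmomatic 0.36, featureCounts, Subread 1.5.1 and the build GRCh38 are named in the submitters' processing notes; no source used here names the aligner or the strand setting. The authors deposited raw counts per gene and RPKM values; the RPKM equal the count over gene length and library total to a relative difference of 1.3e-06. Even values made up 70.2% of the counts between 1 and 10 and 50.8% of high counts, so some fragments may have been counted for both reads. The gene column holds 26 date names, which were not used here under a gene name.

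Counts were tested with edgeR 4.0.16 (R 4.3.3) after filterByExpr (minimum count 10) with TMM factors and a quasi-likelihood test, with Benjamini-Hochberg adjustment over the 18685 tested genes at 0.05; the scripts were tested on simulated data. The biological coefficient of variation was 5.7%. Alternatives used DESeq2 1.42.0, limma 3.58.1 on log2(RPKM + 0.1) and log2(RPKM + 1), other scalings and filters, halved counts, a replicate block and each library left out. The members and lists were chosen with earlier results of these data known. All 10 members are named, with TRAIP, up to 4 called genes of smallest p per list with called genes against the list's more frequent direction, and the 5 genes most like the member of smallest p; other genes named were chosen after their values were seen. A gene of the target list that the rule names is not reported here. In the lists, 5 names were looked up under older symbols (CCN2 as CTGF). Exon overlaps are from GENCODE v29 and promoters from RefSeq.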

Additional observations from a re-analysis of the deposited data

How the results depend on the processing

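FOSB, FOSL1 and BATF3 kept their calls in all 16 alternatives, and 152 of 157 values of the 10 genes kept their direction and their side of the threshold. JUNB lost its call in 3, with DESeq2 (log2 fold change -0.46), without siNC replicate 3 (-0.43) and without siTRAIP replicate 1 (-0.40), so that 1 AP-1 gene fell there. JUN gained a call without siTRAIP replicate 3. ATF3 had -0.0028 with library totals alone, a fit in which the median over all tested genes was -0.0617, against -0.0017 with TMM factors. The cause of these changes of call or sign was not tested. FOS had no value with DESeq2, with the filter of 1 CPM or with halved counts, where it was filtered out.

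Leaving out each library in turn gave 1480 to 2622 called genes, 878 to 1471 rises and 602 to 1151 falls, with 2 to 3 AP-1 genes that rose and 1 to 2 that fell. TRAIP ranged over -1.21 to -1.02. With limma, 1520 genes passed on log2(RPKM + 0.1) and 1519 on log2(RPKM + 1), of which 461 and 450 rose. Library totals alone gave 838 rises and 2050 falls. On summed CPM the log2 ratio was -0.066 for all 10 genes, -0.16 for the FOS genes and 0.059 for the JUN genes. Leaving out a library gave log2 ratios of summed RPKM of -0.20 to -0.16 for all 10, -0.29 to -0.24 for the FOS genes, -0.031 to 0.032 for the JUN genes and -0.033 to 0.034 for ATF3, BATF3 and MAFF.

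Between libraries of the same replicate number, deviations from the group means correlated at -0.0076, -0.018 and 0.0014 for replicates 1 to 3. Low and high genes weighed alike in these values, so they cannot decide whether the replicate numbers pair the libraries. With the replicate block 2145 genes were called, 1279 rises and 866 falls, with 2 AP-1 genes that rose and 2 that fell, and TRAIP at -1.11. FOS, which was not called, had 8 to 22 counts per library, and JUNB had 88 to 218. The part of depth in the results of these genes was not tested.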
